A study of Mus musculus with 18 samples.

Results

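Transcripts of 10 transcription factors shared by the endocrine cells of the pancreas were followed through knockdown of Smndc1 in a mouse alpha cell line: Foxa1, Foxa2, Nkx2-2, Pax6, Isl1, Neurod1, Insm1, Rfx6, Rfx3 and Myt1. They were chosen by gene symbol and not by their values, and are 10 of 55487 genes in the count tables. In the control cells 8 of the 10 were expressed at 1.06 FPKM or more, while Foxa1 and Rfx6 lay near the detection limit. Foxa2 was lower in all 3 comparisons with an empty vector, including that of reporter-negative cells, in which Smndc1 itself was not shown to be lowered. Nkx2-2 was lower and Foxa1 higher in 1 of them, and the other 7 passed no test there. Foxa1 was tested in that comparison only through the group where it was high.

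These factors act in layers. Foxa1 and Foxa2 are forkhead pioneer factors that bind nucleosomal DNA and open enhancers in foregut, liver and pancreas, and in alpha cells they are known to act on the glucagon gene. Nkx2-2, Pax6, Isl1 and Neurod1 are homeodomain, paired-box, LIM-homeodomain and basic helix-loop-helix factors needed for the formation or upkeep of several islet cell types. Insm1 and Myt1 are zinc finger factors of the endocrine progenitor programme, and Rfx3 and Rfx6 are winged-helix factors, Rfx3 acting also on genes of the primary cilium.

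RNA was sequenced from AlphaTC1, an established alpha cell line derived from a tumour of mice carrying a viral oncogene under the preproglucagon promoter, in 2 experiments with 18 libraries. In experiment 1 the cells were transduced with an empty vector (EV, 3 libraries) or with an shRNA against the splicing factor gene Smndc1 (shSmndc1, 3 libraries) and were taken on day 5. In experiment 2 all cells also received RIP-mCherry, a red fluorescent reporter that reads out rat insulin promoter activity. These cells carried either the empty vector with the reporter (EV_RIP, 4 libraries) or the Smndc1 shRNA with the reporter, the latter sorted into mCherry-negative cells (shSmndc1_RIP_neg, 4 libraries) and mCherry-positive cells (shSmndc1_RIP_pos, 4 libraries). No day is given for experiment 2, and whether EV_RIP was sorted is not stated, so sorting and knockdown cannot be told apart in its comparisons with EV_RIP. Nothing in the labels ties replicates to independent cultures, and the p-values therefore reflect the spread among these libraries, which may be technical.

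Total counts ranged from 34045000 to 103050000 except in negative replicates 3 and 4, with 8084600 and 23744000. Those 2 libraries also held 161 and 45.4 CPM (counts scaled to library sizes adjusted by TMM) of Rn7sk, which is not polyadenylated, against 2.44 to 18.6 CPM in the other 16. Rn7sk was 5.24 to 14.2 CPM in EV_RIP and 2.44 to 4.68 CPM in positive cells. Malat1 was 109 to 286 CPM in EV_RIP, 450 to 688 CPM in negative and 287 to 670 CPM in positive cells. Mitochondrial RNA was 0.587% of counts in EV_RIP replicate 1 and 2.34% to 4.76% in the others. The part of these differences in the comparisons with EV_RIP was not tested. The EV libraries held 41.9, 40.2 and 35.1 CPM of Smndc1 and the shSmndc1 libraries 10.4, 9.52 and 10.5 CPM (log2 fold change -1.94, edgeR adjusted p = 0.00145). In experiment 2 its log2 fold change against EV_RIP was -1.15 in positive cells (edgeR adjusted p = 0.00384) and -0.27 in negative cells (edgeR adjusted p = 0.378), so the knockdown did not pass the test in the negative cells. The libraries labelled negative held 23.9, 43.4, 36.3 and 44.6 CPM of Smndc1, against 37.6 to 54.9 CPM in EV_RIP and 16.0 to 25.2 CPM in positive cells, and their values are given under that label and not as those of cells with lowered Smndc1. The alpha cell markers Gcg, Irx1 and Irx2 were well expressed in every group. Pdx1, which marks beta cells, had 0 counts in EV, EV_RIP and negative cells and 1 count each in shSmndc1 and positive cells. It does not stand for the 7 beta cell markers listed, which summed to 55.7 to 77.4 CPM in EV_RIP and 65.5 to 94.7 CPM in positive cells. Of those tested, 2 of 4 were called higher in shSmndc1, 0 of 5 in negative and 4 of 5 in positive cells, and none lower. Over all tested genes 7.22%, 8.17% and 8.47% were called higher there.

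The genes lie on 5 chromosomes (GRCm38), with 6 of the 10 on chromosome 2. Neurod1 lies at 79452521 to 79456751, Pax6 at 105668900 to 105697364, Insm1 at 146221921 to 146225020, Nkx2-2 at 147177546 to 147194243, Foxa2 at 148042877 to 148046969 and Myt1 at 181763332 to 181827797. Insm1 and Nkx2-2 are 0.953 Mb apart, and Nkx2-2 and Foxa2 are 0.849 Mb apart. Rfx6 lies on chromosome 10 (51677756 to 51730432), Foxa1 on chromosome 12 (57540628 to 57546916), Isl1 on chromosome 13 (116298281 to 116309689) and Rfx3 on chromosome 19 (27761721 to 28011166). Exons of 8 of the 10 overlap no other gene of the annotation. Nkx2-2 shares 9.67% of its exonic bases with Nkx2-2os on the opposite strand, and Neurod1 shares 7.37% with Cerkl on the same strand and 5.64% with Gm26755 on the opposite strand. The strand setting of the counting is not given in the sources used here, so reads in those stretches cannot be assigned to one gene.

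Promoters are shown for the 3 factors that passed a test, from 250 bases before to 50 bases after the RefSeq start site (GRCm38.p6, all on the minus strand, written 5′ to 3′). They are chr12:57546062-57546361 for Foxa1, chr2:148046920-148047219 for Foxa2 and chr2:147186353-147186652 for Nkx2-2. Capitals mark matches to motifs of these factor families on either strand: TGTTTAC for forkhead factors, CACTTGA for NKX2 factors, CAGATG for the Neurod1 E-box, GTTGCC for an RFX site and TAATTA for homeodomain factors.
Foxa1: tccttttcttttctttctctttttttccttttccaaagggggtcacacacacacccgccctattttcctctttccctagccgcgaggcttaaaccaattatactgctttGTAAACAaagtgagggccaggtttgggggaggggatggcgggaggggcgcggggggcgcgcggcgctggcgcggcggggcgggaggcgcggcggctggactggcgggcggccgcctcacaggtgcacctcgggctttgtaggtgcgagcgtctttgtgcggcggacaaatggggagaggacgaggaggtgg
Foxa2: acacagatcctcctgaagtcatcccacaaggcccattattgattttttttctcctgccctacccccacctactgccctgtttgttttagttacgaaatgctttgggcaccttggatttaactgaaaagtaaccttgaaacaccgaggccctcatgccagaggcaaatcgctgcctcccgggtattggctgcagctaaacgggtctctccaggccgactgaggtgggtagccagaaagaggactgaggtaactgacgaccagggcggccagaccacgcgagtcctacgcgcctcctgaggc
Nkx2-2: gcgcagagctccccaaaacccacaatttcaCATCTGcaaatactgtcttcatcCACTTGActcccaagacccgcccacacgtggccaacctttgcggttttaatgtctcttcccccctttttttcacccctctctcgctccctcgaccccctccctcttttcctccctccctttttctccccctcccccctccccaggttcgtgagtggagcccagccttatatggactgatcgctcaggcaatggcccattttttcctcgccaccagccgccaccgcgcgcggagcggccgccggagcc
The Foxa1 promoter held 1 forkhead match, GTAAACA, at position -141 from the start, and Nkx2-2 held an NKX2 match at -197 and an E-box match at -220. The Foxa2 promoter shown held none of the 5 motifs. Neither did the other Foxa2 promoters, at chr2:148045899-148046198 and chr2:148045415-148045714, which are not shown. Among 32851 mouse promoters of this length, 3.65% held the forkhead letters, 3.06% the NKX2 letters, 17.2% the E-box, 12.5% the RFX letters and 5.29% TAATTA. Elsewhere among the factors, 1 of 3 Myt1 promoters held 2 forkhead matches, and the RFX letters occurred once each in promoters of Pax6, Rfx6 and Rfx3. The Rfx6 promoter also held 1 TAATTA match, at position 32. The RefSeq start of the sequence shown is the gene's start in the count tables for Foxa2 and lies inside the gene for Foxa1 and Nkx2-2. Insm1 had no promoter in the table used here. A match in these letters is a description of the window and not a measured binding site.

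Levels were compared between the factors in the deposited FPKM, which accounts for length, although the length used for each gene was not checked. In EV, Isl1 stood highest with a mean of 108 FPKM, above 98.0% of the genes detected in that group. It was followed by Neurod1 at 44.7 FPKM, Nkx2-2 at 31.3, Myt1 at 26.6, Foxa2 at 18.8 and Pax6 at 16.0 FPKM. Insm1 had 7.37 and Rfx3 1.80 FPKM, whereas Foxa1 had 0.0447 and Rfx6 0.0125 FPKM, above 26.4% and 13.2% of detected genes. Among neighbours in this order only Foxa2 and Pax6 had overlapping ranges over the 3 EV libraries. The order was the same in EV_RIP, from 115 FPKM for Isl1 to 0.0320 for Rfx6, where 4 of the 9 neighbouring pairs overlapped: Neurod1 and Nkx2-2, Nkx2-2 and Myt1, Foxa2 and Pax6, and Foxa1 and Rfx6. In shSmndc1 and in positive cells Myt1 stood above Nkx2-2 in the mean, with overlapping ranges (22.4 against 19.0 FPKM in shSmndc1 and 20.6 against 19.8 FPKM in positive cells).

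**Figure D1:**
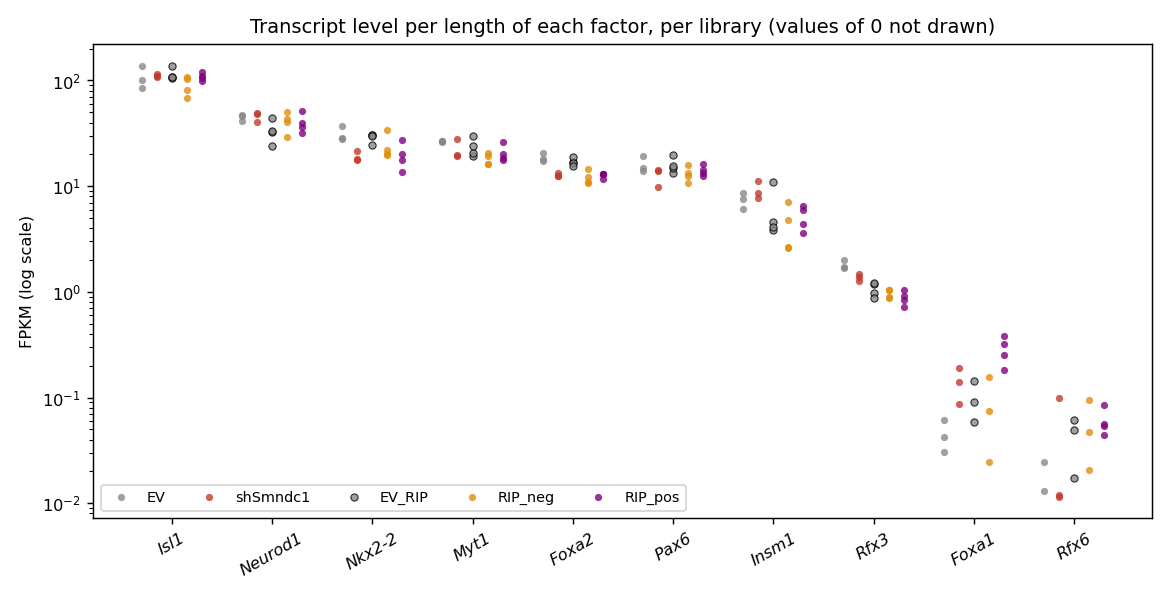
Level of each factor in FPKM on a log axis, 1 point per library, coloured by group (RIP_neg and RIP_pos are shSmndc1_RIP_neg and shSmndc1_RIP_pos; values of 0 are not drawn). From Isl1 at 108 FPKM in EV the levels descend to Foxa1 at 0.0447 and Rfx6 at 0.0125 FPKM.

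Foxa2, the Foxa gene that carries nearly all Foxa transcripts in these cells, was the factor lower in every comparison with an empty vector. Foxa2 stood at 40.1, 45.0 and 38.2 CPM with the empty vector of experiment 1 and at 29.0, 27.2 and 28.0 CPM with the shRNA. The EV_RIP libraries held 37.1, 41.6, 36.8 and 34.1 CPM, the negative ones 27.0, 23.3, 31.9 and 23.8 CPM, and the positive ones 25.8, 28.6, 28.3 and 28.9 CPM. Within each experiment every library labelled with the shRNA was below every empty vector library, although Smndc1 itself was not shown to be lowered in the negative ones. The nearest were negative replicate 3 at 31.9 and EV_RIP replicate 4 at 34.1 CPM. The log2 fold change of Foxa2 was -0.55 in shSmndc1 against EV (SE 0.12, 95% interval -0.81 to -0.29, edgeR adjusted p = 0.0192). Against EV_RIP the log2 fold change was -0.51 in negative cells (SE 0.12, edgeR adjusted p = 0.0183) and -0.42 in positive cells (SE 0.12, edgeR adjusted p = 0.0268), 2 comparisons that share the EV_RIP libraries. In bulk RNA, fewer cells with the transcript and less of it per cell cannot be told apart. The fall in Foxa2 was not shown to differ between experiments: the difference of the log2 effects was -0.03 (95% interval -0.37 to 0.32) against negative and -0.12 (95% interval -0.46 to 0.23) against positive cells. Between positive and negative cells it was 0.08 (95% interval -0.17 to 0.34, edgeR adjusted p = 0.818).

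The direction for Foxa2 was the same in each alternative fit of these 3 comparisons, with the adjusted p under 0.05 in 8 of 11, 15 of 19 and 12 of 18. In experiment 1 the call was lost on leaving out the second EV library, the third EV library or the second shSmndc1 library (log2 -0.48, -0.61 and -0.53, edgeR adjusted p up to 0.0848). In negative cells it was lost without EV_RIP replicate 1, negative replicate 2 or negative replicate 4, and without negative replicates 3 and 4 together (log2 -0.58, edgeR adjusted p = 0.159). In positive cells it was lost without EV_RIP replicates 1, 2 or 3 or positive replicates 1, 2 or 4, with log2 values from -0.36 to -0.46 over all single libraries left out and edgeR adjusted p up to 0.0701.

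Foxa1, the forkhead paralog that overlaps Foxa2 in function, was a rare transcript that stood higher in the unsorted knockdown and in positive cells. The EV libraries held 0.196, 0.0973 and 0.137 CPM of it, from 8, 5 and 6 counts, and the shSmndc1 libraries 0.280, 0.616 and 0.456 CPM, from 13, 41 and 18 counts. In EV_RIP it had 0.188, 0.461, 0.291 and 0 CPM, where the count of 0 in replicate 4 allows up to 0.0621 CPM. In negative cells it had 0.0785, 0.497, 0 and 0.238 CPM, where the 0 of the shallow replicate 3 allows up to 0.361 CPM. In positive cells it had 0.590, 1.20, 1.04 and 0.805 CPM, from 28, 46, 38 and 28 counts. The groups did not overlap in shSmndc1 against EV, nor in positive cells against EV_RIP or against negative cells, whereas negative cells and EV_RIP overlapped.

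Foxa1 rose by a log2 fold change of 1.67 in shSmndc1 (SE 0.47, 95% interval 0.60 to 2.74, edgeR adjusted p = 0.0466), just inside the threshold of 0.05. It reached the minimum of the filter on low counts, 0.220 CPM, in 0 of 3 EV and 3 of 3 shSmndc1 libraries, so in experiment 1 it was tested only through the group where it was high. In experiment 2 the minimum of 0.230 CPM was reached in 4 of 4 positive, 2 of 4 EV_RIP and 2 of 4 negative libraries. Against EV_RIP its log2 fold change was 1.86 in positive cells (SE 0.70, 95% interval 0.37 to 3.35, edgeR adjusted p = 0.0757) and 0.05 in negative cells (95% interval -1.52 to 1.63, edgeR adjusted p = 0.968), and neither passed. The experiment 1 call was lost in 8 of 11 alternatives, among them DESeq2 (adjusted p = 0.0689), the replicate block (edgeR adjusted p = 0.0711) and the fit over all 18 libraries (edgeR adjusted p = 0.174). It was also lost without any of EV replicates 1, 2 or 3 or shSmndc1 replicates 2 or 3 (log2 1.35 to 1.93, edgeR adjusted p from 0.0409 to 0.187 over the 6 libraries left out in turn). In positive cells against EV_RIP 5 of 18 alternatives passed, with DESeq2 at an adjusted p of 0.0428, all 18 libraries in edgeR at 0.0466, no filter at 0.0444, the replicate block at 0.0252 and the fit without EV_RIP replicate 2 at 0.0454.

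Positive and negative libraries with the same number deviated together, so they were also compared as 4 pairs. Foxa1 was higher in the positive library of 4 of 4 pairs. In the fit of the 12 libraries without pairs its log2 fold change was 1.81 (SE 0.74, 95% interval 0.24 to 3.38, edgeR adjusted p = 0.351). With a replicate block on the 8 sorted libraries, an alternative chosen after seeing the data, it was 1.97 (SE 0.45, 95% interval 1.00 to 2.94, edgeR adjusted p = 0.0166). In that fit it reached the filter minimum of 0.268 CPM in 4 of 4 positive and 1 of 4 negative libraries, so it was tested only through the group where it was high and its call there is a description. No other factor was called in the blocked fit, in which 8.43% of all genes were (3.71% higher and 4.72% lower). Isl1 was higher in 4 of 4 pairs as well but did not pass (log2 0.28, SE 0.11, edgeR adjusted p = 0.123).

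The Foxa family can be summed per length. Foxa1, Foxa2 and Foxa3 together had 18.8 ± 1.70 FPKM in EV and 12.8 ± 0.389 FPKM in shSmndc1 (SD, n = 3), and 17.1 ± 1.51, 12.1 ± 1.73 and 13.1 ± 0.747 FPKM in EV_RIP, negative and positive cells (SD, n = 4). Foxa1 made up 0.242% of that sum in EV, 1.09% in shSmndc1, 0.409% in EV_RIP, 0.579% in negative and 2.16% in positive cells. Relative to Foxa2, Foxa1 reached 2.88% in positive replicate 2, the highest library. Mean Foxa1 was 0.0447 FPKM in EV and 0.139 FPKM in shSmndc1, beside 18.8 and 12.7 FPKM of Foxa2, so the family sum followed Foxa2.

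**Figure D2:**
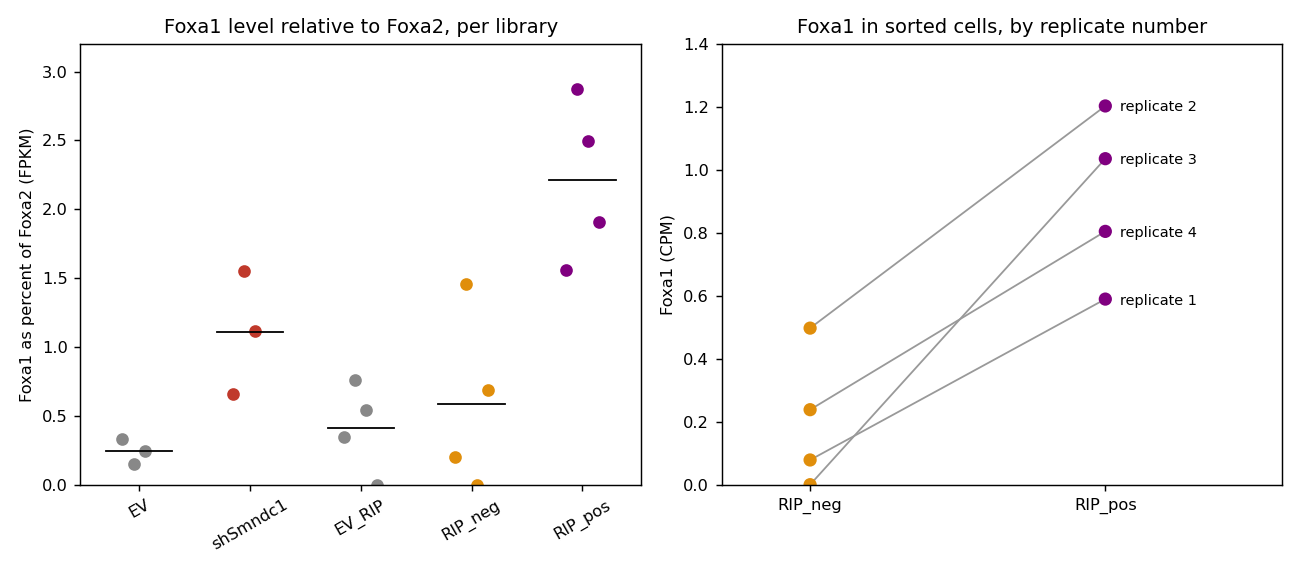
Left, Foxa1 as a percent of Foxa2 in FPKM, 1 point per library with the group mean as a bar (RIP_neg and RIP_pos are the negative and positive cells). Right, Foxa1 in CPM in negative and positive libraries joined by replicate number: all 4 lines rise, from 0 to 0.497 CPM up to 0.590 to 1.20 CPM.

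Of the markers of other cell types, the acinar and duct, the leukocyte, and the delta, PP and epsilon sums stood higher in positive cells than in EV_RIP. Against EV_RIP 1 of the 3 tested acinar and duct genes was called higher and none lower, where 8.47% of all tested genes were called higher and 8.92% lower. The summed level of 8 acinar and duct markers was 51.6 to 97.1 CPM in positive cells against 22.4 to 31.6 CPM in EV_RIP and 24.9 to 42.3 CPM in negative cells, with Spp1 at 43.0 ± 19.7 CPM in positive and 6.26 ± 3.79 CPM in EV_RIP (SD, n = 4). The enzymes Cpa1, Ctrb1 and Prss2 and the duct keratin Krt19 each had a mean of 0.208 CPM or less in every group, and Amy2a5 had 0 counts in 4 of the 5 groups. The summed level of 5 fibroblast markers was 11.5 to 17.1 CPM in positive cells, against 3.25 to 11.9 CPM with EV_RIP. That of 3 leukocyte markers was 15.5 to 19.4 CPM in EV_RIP, 20.7 to 30.2 CPM in negative and 20.1 to 24.5 CPM in positive cells. That of 4 delta, PP and epsilon markers was 0.646 to 0.955 CPM in EV_RIP, 1.23 to 3.53 CPM in negative and 0.969 to 1.58 CPM in positive cells. In experiment 1 the acinar and duct sum was 21.3 to 25.3 CPM in EV and 28.7 to 42.0 CPM in shSmndc1. Of 5 endothelial markers the summed level was 1.43 to 2.36 CPM in EV_RIP, 2.51 to 8.66 CPM in negative and 1.81 to 4.83 CPM in positive cells. Whether such cells were present, and their part in the Foxa1 values, was not tested.

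Nkx2-2, a homeodomain repressor and activator needed for alpha and beta cell formation, was lower in the unsorted knockdown. Its EV libraries held 72.2, 94.1 and 71.7 CPM and its shSmndc1 libraries 54.2, 45.0 and 46.7 CPM, with no overlap. Its log2 fold change was -0.71 (SE 0.14, 95% interval -1.03 to -0.38, edgeR adjusted p = 0.0178). In EV_RIP it had 78.1, 76.8, 62.6 and 75.3 CPM, in negative cells 50.2, 51.2, 86.3 and 55.2 CPM, and in positive cells 34.7, 44.0, 51.4 and 69.9 CPM. Negative replicate 3, the shallow library, held the highest Nkx2-2 of all experiment 2 libraries, and positive replicate 4 lay within the range of EV_RIP. Against EV_RIP the log2 fold change was -0.55 in positive cells (SE 0.20, 95% interval -0.99 to -0.12, edgeR adjusted p = 0.0733) and -0.28 in negative cells (95% interval -0.72 to 0.16, edgeR adjusted p = 0.358), and neither passed.

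The experiment 1 call for Nkx2-2 depended on the same 3 libraries as that for Foxa2: it was lost without each of them (log2 -0.57, -0.78 and -0.65, edgeR adjusted p = 0.0635, 0.0668 and 0.0741). In positive cells it passed in 5 of 18 alternatives, among them the replicate block at log2 -0.59 (edgeR adjusted p = 0.0392) and the fit without positive replicate 4 at -0.76 (edgeR adjusted p = 0.0264). No difference between the experiments was shown for Nkx2-2, with differences of -0.41 (95% interval -1.01 to 0.19) and -0.14 (95% interval -0.74 to 0.46) on the log2 scale against negative and positive cells. Nkx2-2os, the antisense transcript whose exons overlap it, had 16.8 ± 2.76 CPM in EV and 11.8 ± 1.04 CPM in shSmndc1 (SD, n = 3), with a log2 fold change of -0.51 that did not pass (edgeR adjusted p = 0.0640).

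**Figure D3:**
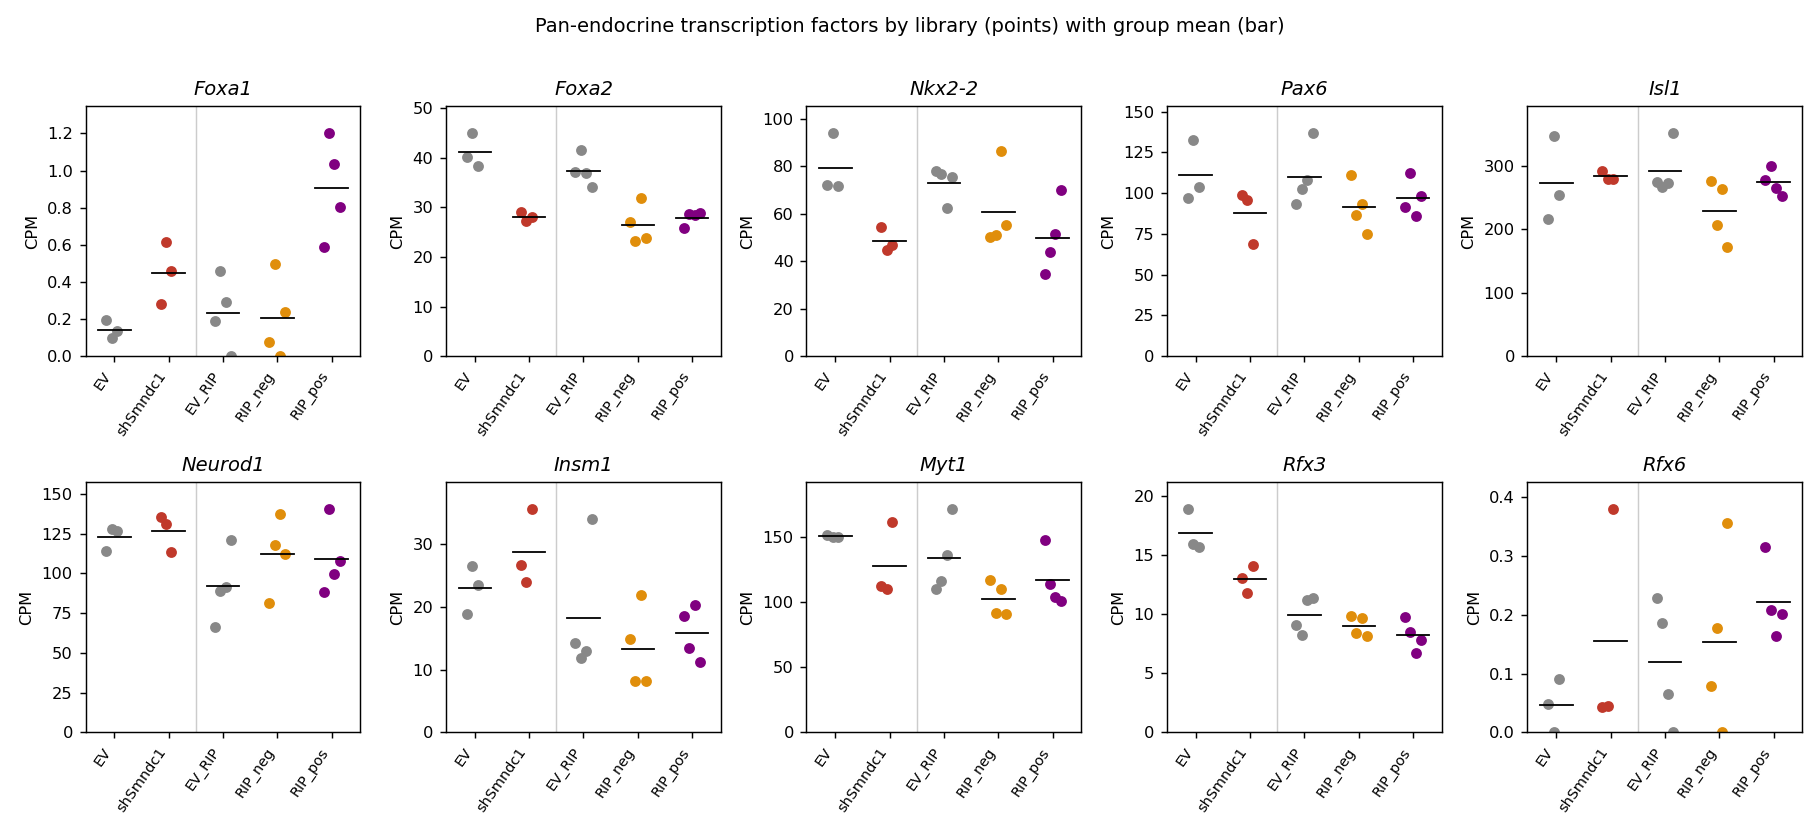
CPM of the 10 factors, 1 point per library with the group mean as a bar, on linear axes that start at 0 (RIP_neg and RIP_pos are shSmndc1_RIP_neg and shSmndc1_RIP_pos; the grey line parts the experiments). Foxa2 lies at 34.1 CPM or more in every empty vector library, at 29.0 CPM or less in shSmndc1 and positive cells, and at 31.9 CPM or less in the libraries labelled negative, whose Smndc1 was not shown to be lowered.

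Pax6, Isl1 and Neurod1, which bind and activate hormone genes in mature islet cells, passed no test in these comparisons. For Pax6 the EV libraries held 97.3, 132 and 104 CPM, the shSmndc1 libraries 99.2, 96.0 and 69.1 CPM, and EV_RIP 93.5, 102, 108 and 137 CPM. Negative cells had 111, 86.4, 93.3 and 74.8 CPM of Pax6 and positive cells 91.7, 112, 85.8 and 98.0 CPM. The groups overlapped in every comparison, and the log2 fold change was -0.34 in shSmndc1 (95% interval -0.73 to 0.06, edgeR adjusted p = 0.213), -0.27 in negative and -0.18 in positive cells. Without negative replicate 1 the value in negative cells was -0.38 (edgeR adjusted p = 0.0490).

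Isl1, the LIM-homeodomain factor and the most abundant of the 10, held 216, 347 and 255 CPM across EV and 291, 280 and 280 CPM across shSmndc1. In EV_RIP it had 275, 267, 273 and 352 CPM, in negative cells 276, 206, 263 and 171 CPM and in positive cells 278, 300, 264 and 252 CPM. Its groups overlapped in each comparison, with log2 fold changes of 0.06 (95% interval -0.34 to 0.45), -0.35 (95% interval -0.66 to -0.04, edgeR adjusted p = 0.111) and -0.09 (95% interval -0.40 to 0.22). Without negative replicate 1 the value in negative cells was -0.46 and passed (edgeR adjusted p = 0.0274).

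Neurod1, the basic helix-loop-helix factor of endocrine differentiation, stood at 114, 128 and 127 CPM with EV, at 135, 131 and 113 CPM with shSmndc1 and at 66.5, 88.6, 91.5 and 121 CPM with EV_RIP. It had 81.4, 118, 137 and 112 CPM in negative cells and 88.1, 140, 99.8 and 108 CPM in positive cells. The groups overlapped, and the log2 fold change was 0.04 in shSmndc1 (95% interval -0.22 to 0.31), 0.28 in negative cells (95% interval -0.13 to 0.69) and 0.25 in positive cells (95% interval -0.16 to 0.66). Neurod1 took 67.3% of the summed FPKM of Neurod1, Neurod2, Neurod4 and Neurod6 in EV and 78.2% in shSmndc1, while its paralogs Neurod4 and Neurod6 were lower.

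Insm1, a zinc finger repressor of endocrine progenitors, had the widest spread of the 8 better expressed factors in EV_RIP and negative cells. In experiment 1 it stood at 18.9, 26.5 and 23.5 CPM with EV and at 26.8, 24.0 and 35.6 CPM with shSmndc1. In EV_RIP it had 14.3, 11.9, 13.0 and 34.0 CPM, a coefficient of variation of 57.5%, in negative cells 14.9, 8.19, 21.9 and 8.26 CPM, and in positive cells 18.6, 13.5, 20.3 and 11.3 CPM. One EV_RIP library thus stood above every other library of experiment 2, and no comparison passed (log2 0.33, -0.49 and -0.20, with edgeR adjusted p = 0.252, 0.366 and 0.731).

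Myt1, a zinc finger partner of the same programme, measured 151, 150 and 150 CPM across EV and 112, 110 and 161 CPM across shSmndc1. In EV_RIP it had 110, 116, 136 and 171 CPM, in negative cells 117, 91.7, 110 and 90.6 CPM and in positive cells 147, 114, 104 and 101 CPM. Only shSmndc1 replicate 3 stood above EV in experiment 1, and this library also held the most Malat1 (1083 CPM against 174 to 478 CPM in the other 5) and mitochondrial RNA (4.76% of counts). The log2 fold change was -0.24 with it (edgeR adjusted p = 0.341) and -0.44 without it (edgeR adjusted p = 0.0151). In negative cells it was -0.38 (95% interval -0.72 to -0.05, edgeR adjusted p = 0.106), and it passed without negative replicate 1 (log2 -0.46, edgeR adjusted p = 0.0459) or without the filter on low counts (log2 -0.45, edgeR adjusted p = 0.0467). Myt1 held 54.5% of the summed FPKM of Myt1, Myt1l and St18 in EV and 53.7% in shSmndc1.

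Rfx3, the ciliary and islet RFX factor, measured 18.9, 15.9 and 15.7 CPM across EV and 13.1, 11.8 and 14.1 CPM across shSmndc1. These groups did not overlap, but the log2 fold change of -0.38 (SE 0.14, 95% interval -0.70 to -0.05) did not pass (edgeR adjusted p = 0.109). The EV_RIP libraries held 9.09, 8.23, 11.2 and 11.4 CPM, the negative ones 9.84, 8.46, 9.74 and 8.14 CPM and the positive ones 9.81, 8.55, 6.76 and 7.87 CPM, and these groups overlapped. Rfx3 took 9.68% of the summed FPKM of the 8 Rfx genes in EV, behind Rfx7 with 28.2%, Rfx1 with 23.2%, Rfx5 with 20.5% and Rfx2 with 18.2%.

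Rfx6, an RFX factor upstream of islet cell formation, was at or near 0. Counts were 2, 0 and 4 with EV, 2, 3 and 15 with shSmndc1, 11, 19, 4 and 0 in EV_RIP, 3, 15, 0 and 9 in negative cells and 15, 8, 6 and 7 in positive cells. It did not pass the filter on low counts in either experiment and was tested only for a difference in effect between the experiments, over all 18 libraries (log2 1.19 against negative and 0.80 against positive cells, edgeR adjusted p = 0.764 and 0.998). The highest library, shSmndc1 replicate 3, stood at 0.380 CPM, and the groups overlapped throughout.

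Counted together, 9 of the 10 factors passed the filter on low counts and were tested, 8 of them in every library and Foxa1 as described above. These 9 are therefore not all members, and their counts describe only the tested ones. In shSmndc1 against EV 1 was higher and 2 were lower, against a background of 14.7% of 18202 tested genes called in either direction (7.22% higher and 7.50% lower). The 9 had a median log2 fold change of -0.24, where the median over all tested genes was 0.00. The groups did not overlap for 4 of the 9 (Foxa1, Foxa2, Nkx2-2 and Rfx3), where 39.5% of all tested genes did not. Foxa1 entered that count only through the group where it was high. Of the 4, only Foxa2, Nkx2-2 and Rfx3 can therefore be set beside that share. In negative cells against EV_RIP 1 of 9 was lower and none higher (background 13.9% of 18897 genes, 8.17% higher and 5.69% lower; groups apart for 1 of 9 against 14.4% of genes), with a median of -0.28 against -0.01 for all genes. In positive cells against EV_RIP 1 of 9 was lower (background 17.4%, 8.47% higher and 8.92% lower; groups apart for 2 of 9 against 23.4%), with a median of -0.19 against 0.00. In experiment 1, without Foxa1, which was tested only through the group where it was high, 2 of 8 were called, both lower.

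Between positive and negative cells none of the 9 passed in the unpaired fit, and 0 of 18897 genes did in edgeR (a background of 0%), although 2314 had an unadjusted p under 0.05 and DESeq2 called 110 genes higher and 205 lower. The groups were apart for 1 of 9, Foxa1, where 6.58% of genes were. In the tests of a difference in effect between the experiments none of the 10 passed, nor did any of 20036 genes in edgeR, while 2612 and 861 genes had an unadjusted p under 0.05 for negative and positive cells and DESeq2 called 155 higher and 189 lower for negative cells and 1 and 2 for positive cells.

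**Figure D4:**
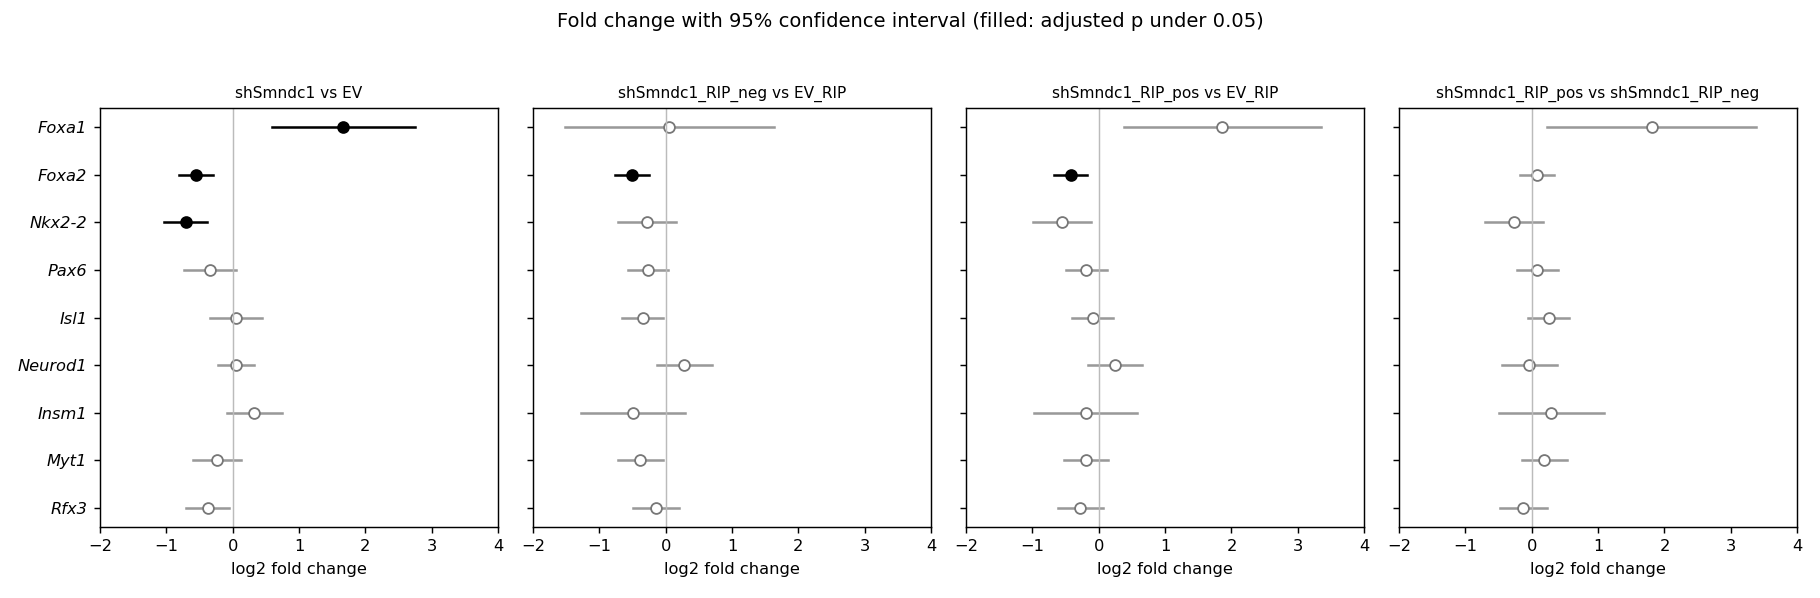
Log2 fold change (point) and 95% confidence interval (line) of the 9 tested factors in 4 comparisons, filled where the edgeR adjusted p was under 0.05. Foxa2 lies left of 0 in the first 3 panels (-0.55, -0.51 and -0.42), and Foxa1 has the widest intervals.

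A single library could decide these counts. In experiment 1 no factor was called without EV replicate 2, without EV replicate 3 or without shSmndc1 replicate 2. Over all genes, 1315 higher and 1366 lower calls became 249 and 301, 71 and 110, and 337 and 290 in those fits. In negative cells no factor was called without EV_RIP replicate 1, negative replicate 2 or negative replicate 4, and 4 were without negative replicate 1. In positive cells none was called without EV_RIP replicate 1, EV_RIP replicate 3, positive replicate 1 or positive replicate 2, and 2 were without negative replicate 3.

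The paralogs of these factors were 19 genes, of which 9 were tested. In shSmndc1 none rose and 2 fell, Neurod6 (16.7 ± 0.347 to 10.1 ± 2.39 FPKM, SD, n = 3, log2 -0.71, edgeR adjusted p = 0.0276) and Neurod4 (4.83 ± 1.44 to 2.50 ± 0.503 FPKM, log2 -0.94, edgeR adjusted p = 0.0356). Both are basic helix-loop-helix factors related to Neurod1. The same 2 fell in negative cells (log2 -1.02 and -1.18, edgeR adjusted p = 0.0137 and 0.0352), and in positive cells no paralog passed (log2 -0.61 and -0.68, edgeR adjusted p = 0.0566 and 0.162). The median of the 9 was -0.12, -0.13 and -0.03 in the 3 comparisons. Among all tested genes 7.50%, 5.69% and 8.92% were called lower there, and 14.7%, 13.9% and 17.4% in either direction.

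Partners of these factors, 22 genes for cofactors, corepressors and Id proteins, changed in both directions around medians of -0.01, -0.01 and 0.01. Crebbp and Ep300, the histone acetyltransferases that many of these factors recruit, rose in all 3 comparisons with an empty vector, with groups that overlapped in negative cells. Crebbp went from 84.4 ± 16.3 to 136 ± 21.9 CPM in experiment 1 (SD, n = 3, log2 0.69, edgeR adjusted p = 0.0325) and Ep300 from 114 ± 19.6 to 167 ± 19.7 CPM (log2 0.56, edgeR adjusted p = 0.0432). Dnmt3a, a DNA methyltransferase, had log2 fold changes of -0.71 in shSmndc1 and -0.61 in positive cells (edgeR adjusted p = 0.0158 and 0.00704). Hdac1, a histone deacetylase, fell in negative and positive cells (log2 -0.54 and -0.56, edgeR adjusted p = 0.0219 and 0.0148), and Tle4, a Groucho corepressor, rose in negative cells (log2 0.74, edgeR adjusted p = 0.0316). The groups of both overlapped in negative cells. Id3, an inhibitor of basic helix-loop-helix factors, rose in positive cells (log2 0.57, edgeR adjusted p = 0.0257). In all, 2 rose and 1 fell of 22 in shSmndc1, 3 and 1 in negative cells and 3 and 2 in positive cells, where 14.7%, 13.9% and 17.4% of all tested genes were called, so these counts are near the background and single out no partner.

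Islet genes on which these factors act made a list of 20. In shSmndc1 1 rose and 7 fell of 17 tested (median log2 -0.59). In negative cells 1 rose and 6 fell of 18 (median -0.31), and in positive cells 4 rose and 6 fell of 18 (median -0.27). Over all tested genes 7.22% rose and 7.50% fell in shSmndc1, 8.17% and 5.69% in negative cells and 8.47% and 8.92% in positive cells. Pcsk2, the prohormone convertase of alpha cells, went from 1792 ± 389 to 937 ± 270 CPM in experiment 1 (SD, n = 3, log2 -0.94, edgeR adjusted p = 0.0359) and had log2 fold changes of -0.96 and -1.17 in negative and positive cells (edgeR adjusted p = 0.0148 and 0.00382). Scg5, the chaperone of that convertase, had log2 fold changes of -0.83, -0.96 and -1.24 in the same order (edgeR adjusted p = 0.0278, 0.0158 and 0.00337). Chga, a granule protein, had log2 fold changes of -0.63, -0.65 and -0.67, and Slc30a8, the granule zinc transporter, of -0.72, -0.89 and -0.87, and all 6 passed. Ins2 rose from 0.286 to 2.74 CPM in shSmndc1 (log2 3.21, edgeR adjusted p = 0.0075), and Gcg rose in positive cells (log2 0.83, edgeR adjusted p = 0.00978). Gcg and Id3, and Scg5, Chga, Pcsk2 and Slc30a8 where they were not among the 4 smallest p-values of a comparison, fall outside the naming rule and were chosen after their values were seen. The list was drawn up with earlier results of these data known, and its direction is no independent evidence.

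Cilium genes listed as targets of RFX factors numbered 13, and RFX sites in them were not checked. In shSmndc1 1 was higher and 3 lower (median -0.26). In negative cells 3 were higher and none lower (median 0.00), and in positive cells 1 was higher and 2 lower (median -0.11). Beside these counts, 14.7%, 13.9% and 17.4% of all tested genes were called in either direction. Foxj1, the forkhead factor of motile cilia, rose in all 3 comparisons, from 2.26 ± 1.18 to 7.50 ± 1.88 CPM in experiment 1 (SD, n = 3, log2 1.73, edgeR adjusted p = 0.0178) and with log2 fold changes of 1.37 and 1.06 in experiment 2 (edgeR adjusted p = 0.0124 and 0.0181). Ift140, a subunit of the retrograde transport complex, had a log2 fold change of -0.81 both in shSmndc1 and in positive cells (edgeR adjusted p = 0.0138 and 0.0132).

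Factors of beta cells were set beside the shared ones. Of 6 beta cell factors 2 were tested in experiment 1 and 3 in experiment 2. Mafa rose in shSmndc1 and in positive cells (log2 1.35 and 1.09, edgeR adjusted p = 0.0185 and 0.0125). The other tested factor had a log2 of -0.34 in shSmndc1, and the others 0.47 and 0.19 in positive cells, none of them called. In negative cells none of the 3 was called. Of all tested genes 14.7%, 13.9% and 17.4% were called in shSmndc1, negative and positive cells.

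These list counts also moved with single libraries. In experiment 1, leaving out EV replicate 3 left 0 calls in each of the 5 lists. Without EV replicate 2 the islet genes kept a count of 1, the partners 1 and the paralogs, cilium genes and beta cell factors 0, and without shSmndc1 replicate 2 the counts were 1, 0, 0, 1 and 0. The cilium count was 2 without shSmndc1 replicate 1, and the paralog count was 1 without EV replicate 1 or shSmndc1 replicate 3. In negative cells all 5 lists had 0 calls without negative replicate 4, and the islet, partner, paralog and cilium counts were 1, 0, 0 and 1 without negative replicate 2 and 3, 0, 1 and 1 without EV_RIP replicate 1. The islet count was 3 without EV_RIP replicate 3 and 4 without negative replicate 3, the partner count 8 without negative replicate 1 and 2 without negative replicate 3, and the cilium count 5 without negative replicate 1. The paralog count there was 1 without EV_RIP replicates 3 or 4 or negative replicate 3. In positive cells the islet count was 6 without EV_RIP replicate 3 or positive replicate 3. The partner count was 2 without EV_RIP replicates 1 or 3 or positive replicate 4 and 1 without positive replicate 2, and the cilium count was 1 without EV_RIP replicates 1 or 3 or positive replicate 2. A paralog passed without EV_RIP replicate 2, negative replicate 1 or negative replicate 4. Between positive and negative cells, 4 islet genes and 1 cilium gene passed without negative replicate 1.

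The genes whose pattern was most like each Foxa gene were taken from the correlation of log2 CPM over the 18 libraries, each centred on its own empty vector, among 10286 and 10285 genes with a mean of at least 5 CPM. They are a description over libraries that share groups and depth. For Foxa1 they were Slc48a1, a haem transporter (r = 0.92), Adgrb1, an adhesion receptor (r = 0.92), and Palld, an actin-binding protein (r = 0.92). With the group means removed, r was 0.85, 0.89 and 0.84, and without the 2 libraries farthest from the median it was 0.88, 0.86 and 0.84. For Foxa2 they were Dhrs4, a retinol-metabolising reductase, Plekhf2, an endosomal protein, and Ap4s1, an adaptor subunit (r = 0.89 each). With the group means removed, r fell to 0.19 for Dhrs4 and was 0.74 and 0.65 for the other two, so the likeness of Dhrs4 lay in the group means. Dhrs4 had 29.6 ± 2.95 CPM in EV and 11.8 ± 1.59 CPM in shSmndc1 (SD, n = 3).

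The stretch of chromosome 2 from Insm1 to Foxa2 was looked at after the values of both genes and of Nkx2-2 were seen. It holds 28 annotated genes, of which 12 were tested, 9 of them no member. In shSmndc1 none was higher, and beside Nkx2-2 and Foxa2, for which the stretch was chosen, 2 of the 9 were lower, where 7.50% of all tested genes were: Kiz (a centrosomal protein gene, log2 -0.56, edgeR adjusted p = 0.0493) and the noncoding 9030622O22Rik. The last starts 6.77 kb downstream of the Foxa2 start on the same strand (147944740 to 148040203). It went from 3.32 ± 0.775 CPM under EV to 0.960 ± 0.0927 CPM under shSmndc1 (SD, n = 3, log2 -1.79, SE 0.27, edgeR adjusted p = 0.00822). In experiment 2 it did not pass (log2 -0.76 in negative and -0.40 in positive cells, edgeR adjusted p = 0.0744 and 0.305). There 1 of the 9 was lower in negative cells, A930019D19Rik, and 1 in positive cells, Kiz, beside 5.69% and 8.92% of all tested genes.

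**Figure D5:**
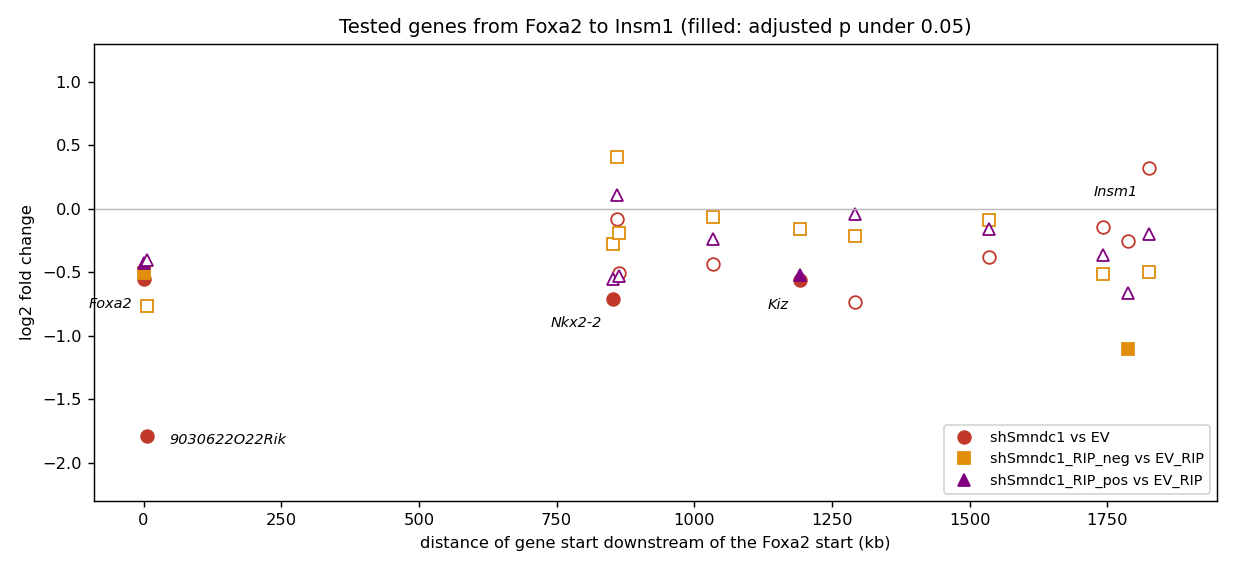
Log2 fold change of the tested genes from Foxa2 to Insm1 against the distance of each gene's start downstream of the Foxa2 start in kb, with circles for shSmndc1 against EV and squares and triangles for negative and positive cells against EV_RIP, filled where the edgeR adjusted p was under 0.05. All filled points lie below 0, the lowest being 9030622O22Rik at -1.79 in shSmndc1 and A930019D19Rik at -1.11 in negative cells.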

How the data were processed

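Poly(A) RNA-seq of 18 libraries was analysed. The submitters' processing notes name GRCm38, STAR 2.7.5a, Picard 2.19.2 and DESeq2 1.30.0. The counting tool is not given in the sources used here, nor is its strand setting. The deposited whole-number counts were tested, and the deposited FPKM values were used for levels between genes. Across libraries of an experiment, these FPKM values follow counts divided by DESeq2 size factors. The length used for each gene was not checked. Experiments were fitted separately with edgeR 4.0.16 in R 4.3.3 (filterByExpr, TMM, quasi-likelihood test, Benjamini-Hochberg threshold 0.05), and differences in effect over all 18 libraries. CPM comes from those library sizes. A count of 0 allows up to 3 counts, for counting error only. Alternatives were RLE scaling, no filter, DESeq2 1.42.0, other sets of libraries, a replicate block and each library left out; the block on sorted libraries alone and the removal of negative replicates 3 and 4 were added after seeing the data. Same-numbered positive and negative libraries deviated together (r from 0.145 to 0.659, each best with its own number), which is where that pairing comes from. Named genes are the members, up to 4 per list and comparison with the smallest p among those past the threshold, overlapping genes, and the 3 most like Foxa1 and Foxa2. Some listed genes are not reported here. The members and lists were chosen with earlier results of these data known. Promoters are from RefSeq (GRCm38.p6), with 9 of 10 members matched. The tests were tried on simulated counts.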

Additional observations from a re-analysis of the deposited data

Results flagged for a closer look

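In each of 30 sets of 4 libraries, 10 factors by 3 groups, the most extreme library was compared with its neighbours, a check that chance alone fails in about 1 of 20 sets. In 4 sets 1 library stood apart. Foxa2 was lowest in positive replicate 1 at 25.8 CPM, with the next library at 28.3 CPM. Nkx2-2 was highest in negative replicate 3 at 86.3 CPM, with the next at 55.2 CPM. Isl1 was highest in EV_RIP replicate 4 at 352 CPM, with the next at 275 CPM, and Insm1 was highest in the same library at 34.0 CPM, with the next at 14.3 CPM.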

How the results depend on the processing

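Of the 3 factors called in experiment 1, 0 to 3 were called with 1 library left out. In negative cells against EV_RIP the count of 1 became 2 with no filter, 0 without negative replicates 3 and 4, and 0 to 4 with 1 library left out. In positive cells against EV_RIP the count of 1 became 2 with DESeq2, 3 with all 18 libraries in one fit, 3 with no filter, 3 with the replicate block and 0 to 2 with 1 library left out. Between positive and negative cells the count of 0 became 1 with the replicate block on the sorted libraries alone. Directions turned for Foxa1 in negative cells with DESeq2 (-0.0283) and no filter (-0.0106), and between positive and negative cells without negative replicates 3 and 4 for Neurod1 (0.13) and Pax6 (-0.0281); the cause was not tested. With 1 library left out, log2 values that crossed 0 ranged as follows. Foxa1 ranged from -0.97 to 0.63 in negative cells and from -0.77 to 0.19 for the difference in effect between shSmndc1 and positive cells. The difference for Foxa2 against negative cells ranged from -0.10 to 0.0634 and that for Nkx2-2 against positive cells from -0.28 to 0.0584. Isl1 ranged from -0.10 to 0.27 in shSmndc1 and from -0.13 to 0.0179 in positive cells, Neurod1 from -0.0188 to 0.11 in shSmndc1 and from -0.17 to 0.0749 between sorted cells, Insm1 from -0.34 to 0.29 in positive cells and Pax6 from -0.00038 to 0.20 between sorted cells. In the other 3 comparisons same-numbered libraries did not pair (r from -0.27 to 0.48, own number best in 1 of 3, 2 of 4 and 2 of 4), and the replicate block gave 1343 higher and 1470 lower genes in shSmndc1, 2421 and 2176 in negative and 2508 and 2571 in positive cells, and between sorted cells 22 and 56 over 12 libraries and 667 and 850 over the 8 sorted ones. It ended the call of Foxa1 in shSmndc1, gave those of Foxa1 and Nkx2-2 in positive cells and of Foxa1 between sorted cells, and changed no other call of a factor. Without the filter 2024 and 2141 genes were called in shSmndc1. Over all genes in negative cells, the fit of only those 2 groups called 843 and 446 genes, DESeq2 2435 and 1584, and without negative replicates 3 and 4 the calls were 4 and 0. Foxa1 and Rfx6 rest on the fewest counts, with 0 of both in the shallow negative replicate 3 and in EV_RIP replicate 4, which is not shallow.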
